A study of Mus musculus with 15 samples.

Results

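Early round spermatids are the first haploid cells after the meiotic divisions, and here they are the cells that carried transcripts of the X-linked genes Ssxb1 and Ssxb2 and of 1700001F09Rik without those of the neighbouring stages. A cell was taken when it had at least 500 genes, at least 2000 unique molecular identifiers (UMIs, one per captured RNA molecule) and under 30% mitochondrial UMIs, at least 2 UMIs over the 3 marker genes, no UMI of Spam1 (an acrosomal hyaluronidase of later spermatids), at most 1 UMI over the spermatocyte genes Sycp1, Pou5f2 and Piwil1, fewer than 3 of 6 genes of dividing and other cells (Aurka, Cdk1, Rhcg, Dnaic2, Spc25 and Nkx2-4), and under 10% of its UMIs on protamine and transition protein genes (Prm1, Prm2, Tnp1 and Tnp2). The rule kept 336 of the 53050 cells that passed the quality limits, out of 101610 cell barcodes in 15 libraries. These 17 genes chose the cells, so their values are given as a description and enter no test.

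The study asked what JQ1, a small molecule that binds the bromodomains of the BET proteins, does to spermatogenesis in DBA/2J mice, and whether the effect reverses. T mice were 10 wk old and received 50 mg/kg JQ1 by daily intraperitoneal injection for 3 wk, and VC-T mice of the same age received the vehicle alone, DMSO in 10% (2-hydroxypropyl)-β-cyclodextrin. R and VC-R mice had the same injections and were 16 wk old, 6 wk after the last dose, and UC mice were untreated and 15 wk old. Each group had 3 mice, with 1 library from 1 testis of each, so the age of UC cannot be told apart from the absence of injections in a comparison of T with UC, and the testis as a whole was dissociated with no sort of cells.

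Round spermatids sit between meiosis and the reshaping of the sperm head. Their nucleus is still round and transcribed, the Golgi builds the acrosome over it, and many messages are made ahead of use and stored until the genome is packed by transition proteins and then protamines. BRDT is the testis-specific BET protein. It binds acetylated histones in spermatocytes and spermatids, and JQ1 occupies its acetyl-lysine pockets as it does those of other BET proteins.

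The sequences just before the starts of the genes that the results turn on are shown first. Ssxb1 and Ssxb2 are neighbouring members of one X-linked family and marked the cells, so their promoters are given for how alike they are. The 100 bases before each start matched at 97 places (RefSeq, GRCm38.p6, Ssxb1 at chrX:8413205-8413304 on the + strand and Ssxb2 at chrX:8461727-8461826 on the - strand), and capitals mark the bases that differ. Reads of genes this similar may be shared or discarded in counting, so the split of UMIs between them is uncertain, and the rule uses their sum.
Ssxb1: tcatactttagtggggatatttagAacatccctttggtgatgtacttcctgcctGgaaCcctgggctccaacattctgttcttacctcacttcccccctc
Ssxb2: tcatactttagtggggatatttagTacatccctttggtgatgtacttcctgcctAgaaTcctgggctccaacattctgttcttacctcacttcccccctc

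The ribosomal protein genes Rps7, Rpl15, Rpl9 and Rpl7a are shown because all of them were lower in T. Each line holds the 100 bases before the RefSeq start, at chr12:28635954-28636053 (-) for Rps7, chr14:18270987-18271086 (-) for Rpl15, chr5:65391432-65391531 (-) for Rpl9 and chr2:26910707-26910806 (+) for Rpl7a in GRCm38.p6. Capitals mark CCGGAA on either strand, the core that ETS factors bind.
Rps7: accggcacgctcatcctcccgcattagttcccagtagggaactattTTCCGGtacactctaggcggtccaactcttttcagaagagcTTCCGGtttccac
Rpl15: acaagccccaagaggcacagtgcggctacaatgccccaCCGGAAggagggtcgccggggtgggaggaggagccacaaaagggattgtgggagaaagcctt
Rpl9: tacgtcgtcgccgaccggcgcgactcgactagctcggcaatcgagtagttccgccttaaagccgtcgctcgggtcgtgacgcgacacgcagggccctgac
Rpl7a: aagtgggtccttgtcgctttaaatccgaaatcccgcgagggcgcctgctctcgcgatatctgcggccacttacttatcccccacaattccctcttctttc

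Rps7 held 2 copies of the motif, Rpl15 held 1, and Rpl9 and Rpl7a held 0 in this window. Over the full 250 bases before the start, 12.0% of 32851 RefSeq promoters held CCGGAA, as did 22.3% of the promoters of the genes tested below and 35.4% of 65 promoters of ribosomal protein genes. The motif was chosen after the values had been seen and its presence is a description.

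The last 2 sequences belong to 1700027A15Rik and Spata3, which had the lowest adjusted p-values among the called lower genes outside the ribosomal family. The first is the 136 bases between the RefSeq starts of Tnp1 and 1700027A15Rik, which are transcribed away from each other in that annotation (chr1:73015900-73016035, + strand), and the second the 100 bases before Spata3 (chr1:86021845-86021944, + strand). Capitals mark TGACNTCA, the cAMP response element with its middle base free.
1700027A15Rik: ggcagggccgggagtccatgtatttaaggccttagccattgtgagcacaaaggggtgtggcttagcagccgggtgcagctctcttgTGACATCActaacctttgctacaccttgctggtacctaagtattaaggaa
Spata3: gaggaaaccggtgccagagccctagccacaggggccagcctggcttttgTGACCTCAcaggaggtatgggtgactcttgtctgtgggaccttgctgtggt

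TGACNTCA stood in 5 of 10 promoters of the 6 named genes outside the ribosomal family that were lower in T, a share of 50%, against 7.49% of all promoters and 10.6% of those of tested genes. CREM, which binds this element in spermatids, is described below. The half-site TGACG of this element stood in 1 of the same 10 promoters (10%), against 17.8% of all promoters and 28.7% of those of tested genes. These motifs too were chosen after the values had been seen, and their presence is a description.

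Libraries held between 9673587 and 98724982 UMIs, and the early round spermatids of a library summed to between 21465 and 247069 UMIs. No pair of libraries shared more than 46 cell barcodes, at most 0.554% of a library. VC-T 1 stood apart from its group: cells with at least 10% protamine and transition protein UMIs were 0% of its cells and between 0% and 0.121% in T, against 44.5 to 67.0% in the other 11 libraries. The study left VC-T 1 out of its tests between groups, and it was left out of the gene tests here as well, while its values are printed. Replicates are separate mice.

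The cells had little marker RNA, and most lay at the edge of the rule. 1700001F09Rik was detected in 253 of the 336 cells (75.3%), Ssxb2 in 173 (51.5%) and Ssxb1 in 155 (46.1%), and all 3 together in 30 (8.93%). Exactly 2 marker UMIs were found in 232 cells, 3 in 73 and 4 or more in 31. Just outside, 951 cells met every other condition with 1 marker UMI, 246 cells with enough marker UMIs were left out for Spam1, 264 for spermatocyte genes, 67 for the genes of dividing cells and 20 for protamines and transition proteins. A cell at 2 marker UMIs and a cell at 1 differ by a single molecule, so the 336 cells are a sample of a larger population and not a count of it.

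Their depth ran from 2012 to 15948 UMIs with a median of 3823, and from 919 to 4613 genes with a median of 2069. Acrv1, an acrosomal matrix protein first made in round spermatids, was detected in 256 cells (76.2%). Y-linked UMIs were detected in 280 cells (83.3%); spermatids carry either an X or a Y and exchange transcripts over cytoplasmic bridges. A protamine or transition protein UMI was absent from 60 cells, of which 49 were among the 145 cells of T and 11 among the 59 of VC-T, and it was present in every cell of R, VC-R and UC. Scrublet, which scores simulated doublets, marked 8 of the 336 cells among the top 5.4% of each library.

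Several genes outside the rule had levels between those of spermatocytes and later spermatids. For this comparison the UC libraries were divided by the same genes into a spermatocyte gate (at least 2 UMIs of the spermatocyte genes), a later round gate (Spam1 detected), a protamine gate (10% or more) and cells with at least 2 spermatogonia markers. Levels are CPM, the UMIs of a gene scaled to a fixed total (counts per 1000000) over the cells of a gate in a library. Acrv1 was at 234 ± 36.0 CPM (SD, n = 3 UC libraries) in spermatocytes, 351 ± 132 in early round spermatids and 598 ± 28.0 in the later gate. Spaca1, a protein of the inner acrosomal membrane, went from 356 ± 41.5 to 504 ± 171 and 851 ± 96.8 CPM. Catsper3, a subunit of the sperm calcium channel, went from 80.5 ± 9.09 to 128 ± 26.3 and 203 ± 18.2 CPM. All 3 means stood in the same order. The SD of the early cells reached the spermatocyte mean for Acrv1 and Spaca1 but not the mean of the later gate. For Catsper3 it reached neither.

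Meiotic genes ran the other way. Sycp3, a lateral element of the synaptonemal complex, was at 340 ± 31.9 CPM in spermatocytes, 79.9 ± 26.1 in early round spermatids and 38.1 ± 11.2 in the later gate, and Hist1h1t, the linker histone of spermatocytes, was at 153 ± 23.3, 5.57 ± 9.65 and 7.06 ± 1.76 CPM. Hspa2, a chaperone of meiotic and later cells, stayed at 944 ± 132 CPM, near its 1006 ± 83.8 in spermatocytes. Crem, the transcription factor that activates many spermatid genes, was at 532 ± 48.1 CPM, near its 540 ± 30.7 in the later gate and above its 329 ± 22.6 in spermatocytes. Other genes did not follow this order. Fhl5, a partner of CREM, was at 107 ± 62.0 CPM in early round spermatids, below both the 220 of spermatocytes and the 401 of the later gate, and Tmem225 was at 482 ± 102 CPM, above both 151 and 386. Brdt was at 138 ± 87.3 CPM and Brd2 at 192 ± 31.1.

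**Figure D1:**
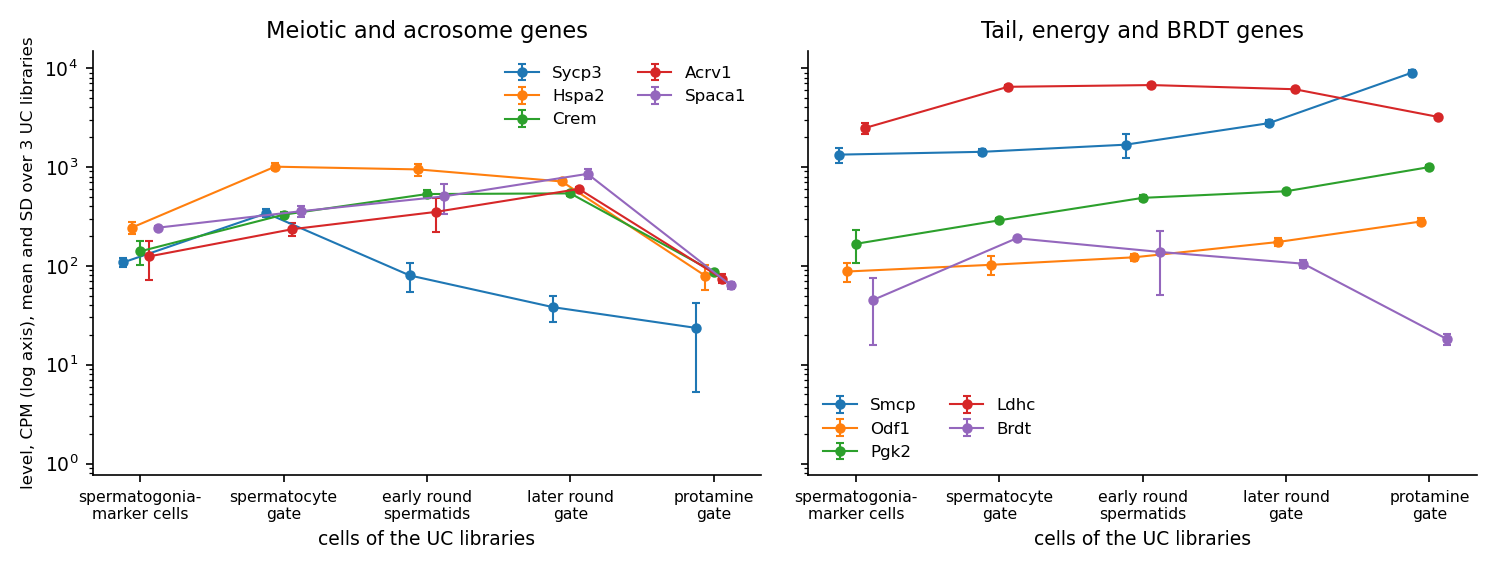
Levels in CPM (log axis) of 10 genes in 5 sets of cells of the UC libraries, from spermatogonia-marker cells to the protamine gate; points are means over 3 libraries and bars are SDs. Sycp3 falls from 340 CPM in spermatocytes to 79.9 in early round spermatids, while Acrv1 and Spaca1 rise to their highest means in the later gate.

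The most abundant transcript was Ldhc, the germ cell lactate dehydrogenase, with 6731 CPM (range 6609 to 6822 over the UC libraries), followed by Meig1, needed for the manchette and flagellum, with 6449, Fabp9, a fatty acid binding protein of the testis, with 5059, Ubb (ubiquitin) with 4596 and Ropn1l, a protein of the fibrous sheath, with 4396. The 10 that followed were Gstm5, Gm5617, Lyar, Rbakdn, Pgp, Gpx4, Gkap1, Pebp1, Fam229b and Hsp90aa1, between 4250 and 2606 CPM. The libraries are 3′ tag counts, in which a molecule counts once whatever its length. Of these 15, Gkap1 had the largest ratio to the higher of the spermatocyte and later gates, 0.53 on the log2 scale.

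Genes with the largest such ratio among those of at least 50 CPM were rare transcripts. Ccdc42os led with 64.9 CPM against 13.7 in spermatocytes and 9.61 in the later gate, a log2 ratio of 2.24 that rests on 11 UMIs. Syt5, a synaptotagmin, had 62.8 against 10.3 and 15.8 CPM (1.99, 13 UMIs), and Gabarapl2, an autophagy protein, had 199 against 64.8 and 61.0 CPM (1.62, 45 UMIs). The other 12 (Kti12, Dcdc2a, Gm2511, Gm21190, Etohd2, Srek1ip1, Brf2, Arl14ep, Gpn1, Mypop, Rfx8 and 4930449I24Rik) had log2 ratios between 1.36 and 1.74 on 8 to 26 UMIs. These were ranked in the cells that the rule chose, so they are a description of these 44 UC cells.

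Early round spermatids made up a larger share of the cells in T than in any control library. The share was 1.54%, 1.49% and 1.66% in T 1, T 2 and T 3, where 64, 52 and 29 cells were found. It was 1.03%, 0.229% and 0.625% in VC-T and 0.419%, 0.424% and 0.704% in UC. All 3 T libraries lay above all 6 control libraries. The mean was 1.56 ± 0.0823% in T and 0.573 ± 0.282% in the 6 libraries of VC-T and UC (two-sided exact permutation test, p = 0.0238, the smallest that 3 against 6 can give). There were 10 such tests on these cells, and the adjusted p was 0.159. With every cell thinned to 2000 UMIs before the rule was applied, the difference was 1.04 percentage points against 0.992. Exact 95% intervals for counting error ran from 1.11 to 2.37% in T 3, the widest of T, and from 0.0744 to 0.534% in VC-T 2, where 5 cells were found.

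The share moved with the cells that fill the rest of a library. Late cells were nearly absent in T and in VC-T 1, as given above, and the share in VC-T 1 was the highest outside T. Counted against spermatocytes, which does not use late cells, the T libraries had 2.99, 2.73 and 2.73 early round spermatids per 100 spermatocyte-gate cells. VC-T had 1.90, 1.19 and 3.35, and UC had 2.45, 2.71 and 4.67. The T values lay inside the control range, at 2.81 ± 0.149 against 2.71 ± 1.21 (exact permutation p = 0.881, adjusted 0.881). The difference was -0.46 against UC alone and -0.06 without VC-T 1. Counted against the later round gate the order was another: T had 19.6, 21.1 and 26.9 cells per 100 later round cells, VC-T 11.3, 8.06 and 15.5, and UC 8.06, 9.80 and 15.5. Here all 3 T libraries lay above all 6 control libraries, with means of 22.5 ± 3.83 in T, 11.6 ± 3.74 in VC-T and 11.1 ± 3.88 in UC, and no test was run on this ratio. With thinning to 2000 UMIs before the rule the groups overlapped, with T 1 at 11.5 and VC-T 3 at 11.9. The part of late-cell loss in the share was not tested beyond these values.

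In R the share was lower on average, with overlap. It was 0.154%, 0.460% and 0.183%, from 7, 24 and 16 cells, against 0.452%, 0.438% and 0.614% in VC-R, a mean of 0.266 ± 0.169% against 0.509 ± 0.121% in the 6 libraries of VC-R and UC (exact permutation p = 0.119, adjusted 0.238). R 2 lay inside the control range and R 1 and R 3 below it. Per 100 spermatocytes R had 1.20, 3.42 and 1.30 cells against 2.89, 2.26 and 2.74 in VC-R, with means of 1.98 ± 1.25 and 2.95 ± 0.870 (exact permutation p = 0.167, adjusted 0.278). Thinned to 2000 UMIs, the difference in share was -0.03 percentage points in place of -0.24 (exact permutation p = 0.667).

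Genes per cell at equal depth had a higher mean in T, which did not pass the adjusted test. Each cell was thinned to 2000 UMIs, the floor of the rule, and the expected number of genes was 1341, 1334 and 1348 in T, 1339, 1301 and 1270 in VC-T and 1285, 1303 and 1290 in UC. VC-T 1 lay among the T libraries and the other 5 controls below them. The means were 1341 ± 7.02 and 1298 ± 23.3 genes (exact permutation p = 0.0476, adjusted 0.159). R had 1327, 1303 and 1338 genes against 1313, 1272 and 1303 in VC-R, with means of 1323 ± 17.8 and 1294 ± 14.8 (exact permutation p = 0.0476, adjusted 0.159), and with thinning before the rule p was 0.262. Without any 1 library of T or R the p was 0.0714 or 0.143, and 2 libraries against 6 cannot go below 0.0714.

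**Figure D2:**
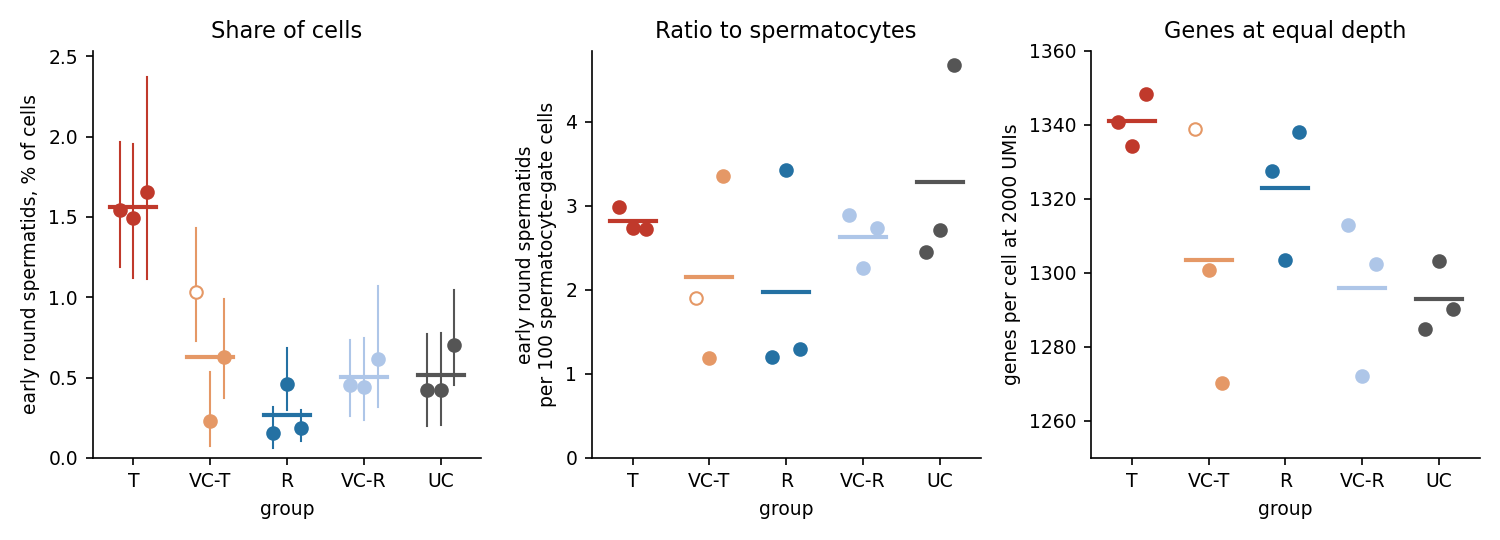
Early round spermatids as a share of cells (%), with exact 95% intervals, per 100 spermatocyte-gate cells, and genes per cell at 2000 UMIs (this axis does not start at 0), by group; each point is a library, the open circle is VC-T 1 and bars are group means. T lies above all other libraries in share (1.49 to 1.66%) but inside the control range per 100 spermatocytes.

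Depth and sex chromosome share differed less. The median UMIs per cell were 3286, 2769 and 4406 in T, with a mean of 3487 ± 837 against 4097 ± 1002 in VC-T and UC (exact permutation p = 0.405, adjusted 0.578), and 7033, 5861 and 2670 in R, a mean of 5188 ± 2258 against 4785 ± 637 (exact permutation p = 0.690, adjusted 0.767). X-linked genes outside the rule took 1.01%, 0.982% and 0.978% of UMIs in T, a mean of 0.991 ± 0.0190% against 0.848 ± 0.0895% in the 6 controls (exact permutation p = 0.0952, adjusted 0.238). UC 2, at 1.02%, was above every T library, and without it the p was 0.0357. In R the X-linked share was 0.811%, 0.830% and 1.33%, and the mean of 0.990 ± 0.293% stood against 0.912 ± 0.0825% (exact permutation p = 0.619, adjusted 0.767). The 1.33% came from R 3, without which the difference was -0.09 percentage points.

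R 3 stood apart in other ways. Its early round spermatids held 2.82% mitochondrial UMIs, against 0.365 to 0.764% in the other 14 libraries, and 2.06% protamine and transition protein UMIs, exceeded by the 2.13% of UC 1. Of its 16 cells 15 held 1 to 10% protamine and transition protein UMIs, against 3 of 10 in UC 1, 10 of 24 in R 2 and 4 of 5 in VC-T 2. The summed level of 11 Sertoli cell markers was 717 CPM, against 0 to 233 CPM elsewhere, and the summed level of the list of late spermatid genes was 17928 CPM, the highest of the 15. With these values the name early round spermatids is uncertain for the cells of R 3. Results for R rest in large part on this library, and its part in them is given as values without it.

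The UMIs of all early round spermatids of a library were then added up, and 3060 genes were tested with the quasi-likelihood method of edgeR. Libraries with under 10 cells (VC-T 2 with 5 and R 1 with 7) and VC-T 1 were left out, which left 12 libraries and 288 cells, so VC-T was represented by VC-T 3 alone and R by R 2 and R 3. A gene was called when its adjusted p was under 0.05 and its log2 fold change over 1 in size.

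Against UC, T had 19 called genes, 6 higher and 13 lower, which is 0.621% of the 3060 tested. With RLE size factors there were 15, 3 higher and 12 lower, and DESeq2 called 10, all lower. The median log2 fold change over all tested genes was 0.00. Of the 13 lower genes 4 encode ribosomal proteins and 2, Spata3 and Ccdc91, are in the list of late spermatid genes. The count was 34 without T 1 and 7 without UC 1, and between 13 and 19 without any other single T or UC library.

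**Figure D3:**
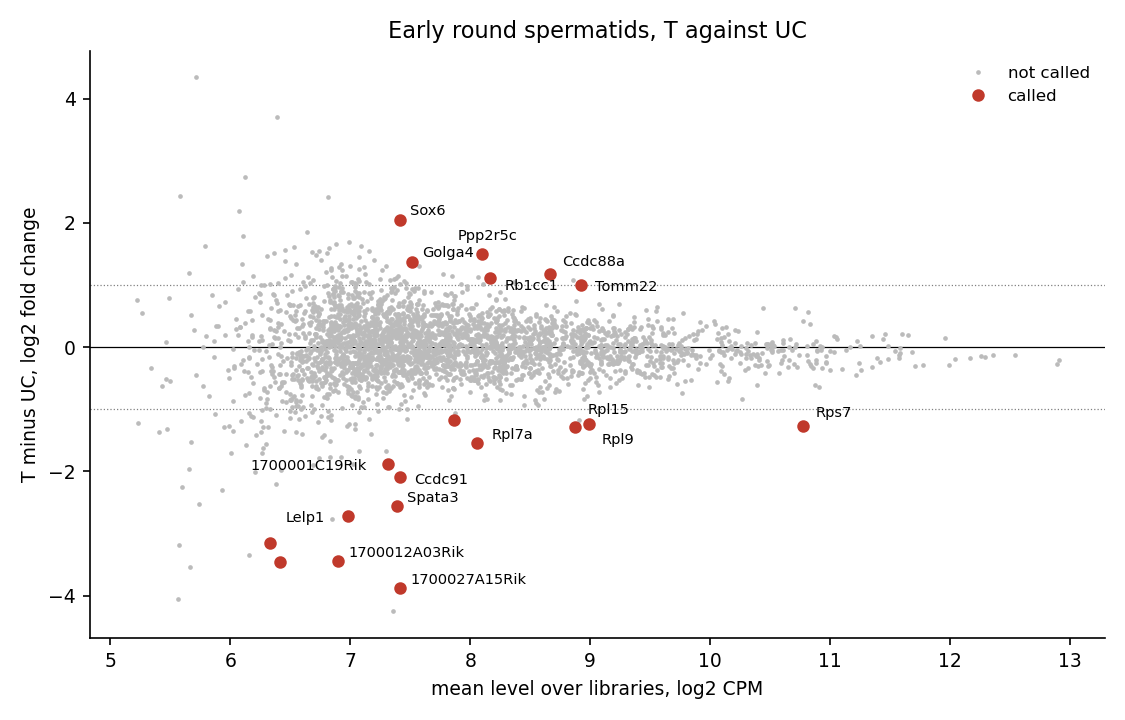
Log2 fold change of T against UC (vertical axis) over mean level in log2 CPM for the 3060 genes tested in early round spermatids; red points are the 19 called genes and dotted lines lie at a log2 fold change of 1 in either direction. Rps7 is the most abundant called gene, and the lower genes outside the ribosomal family have mean levels below those of Rps7, Rpl15 and Rpl9.

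The lowest adjusted p belonged to a ribosomal protein gene. Rps7, of the small subunit (chr12:28630854-28635953, - strand), was at 797, 820 and 736 CPM in T 1, T 2 and T 3. It was at 2084, 1916 and 1655 CPM in UC and at 1455, 2190 and 1602 in VC-T. R had 1428, 1624 and 1283 CPM and VC-R 1447, 1827 and 1956. All 3 T libraries lay below all 12 others, VC-T 1 included. The log2 fold change against UC was -1.27 ± 0.153 (SE, adjusted p = 9e-12 by edgeR).

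Rpl15, of the large subunit (chr14:18267823-18271391), was at 251, 258 and 159 CPM in T and 635, 496 and 527 in UC, a log2 fold change of -1.28 ± 0.225 (adjusted p = 2.59e-05). In the other groups it lay between 358 and 518 CPM, above T in every library. Rpl9 (chr5:65388364-65391444) was at 263, 235 and 190 CPM in T and 556, 609 and 502 in UC, at -1.23 ± 0.223 (adjusted p = 4.85e-05). Rpl7a (chr2:26910764-26913318) was at 101, 91.7 and 91.1 CPM in T and 318, 180 and 301 in UC, at -1.55 ± 0.311 (adjusted p = 0.000428), and its lowest value outside T was the 143 CPM of VC-T 1. For all 4 genes the T libraries did not overlap with any other library. Without UC 3 the adjusted p of Rpl7a was 0.0770, while Rps7, Rpl15 and Rpl9 were called without any single library. After thinning to 2000 UMIs before the rule, Rps7 was at -1.05 (adjusted p = 0.109 by edgeR), Rpl9 at -0.80 (0.865) and Rpl7a at -1.88 (0.591), none of them called, and Rpl15 was called in all 19 settings tried.

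The family was then counted as a whole. Of 73 ribosomal protein genes tested, a list drawn up after these values had been seen, 7 had an adjusted p under 0.05 and were lower and 1 was higher, beside 0.85% of all tested genes under that threshold in either direction and 0.621% lower. The median log2 fold change of the 73 was -0.11 with 45 negative. Against VC-T 3 it was -0.44 with 65 negative, where all tested genes had 0.06, and 6 had an adjusted p under 0.05, all lower, of which 3 were called. For treatment less recovery it was -0.36 with 59 negative, where all genes had 0.02 and none of the 73 had an adjusted p under 0.05. These comparisons share the T libraries, and those against VC-T 3 and for treatment less recovery also share VC-T 3 as the only VC-T library. Besides the 4 above, Rpl8 fell by 0.74, Rpl17 by 0.84 and Rpl27 by 0.78 on the log2 scale, short of the limit of 1. Rps29, a small zinc-finger protein of the small subunit, was higher, at 1315, 1364 and 934 CPM in T against 715, 654 and 886 in UC, at 0.62 ± 0.167 (adjusted p = 0.0336). In VC-T, R and VC-R it was at 944 to 1614 CPM, so here UC and not T stood apart. Ribosomal protein genes have many processed pseudogenes, and counting may lose or move their reads.

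**Figure D4:**
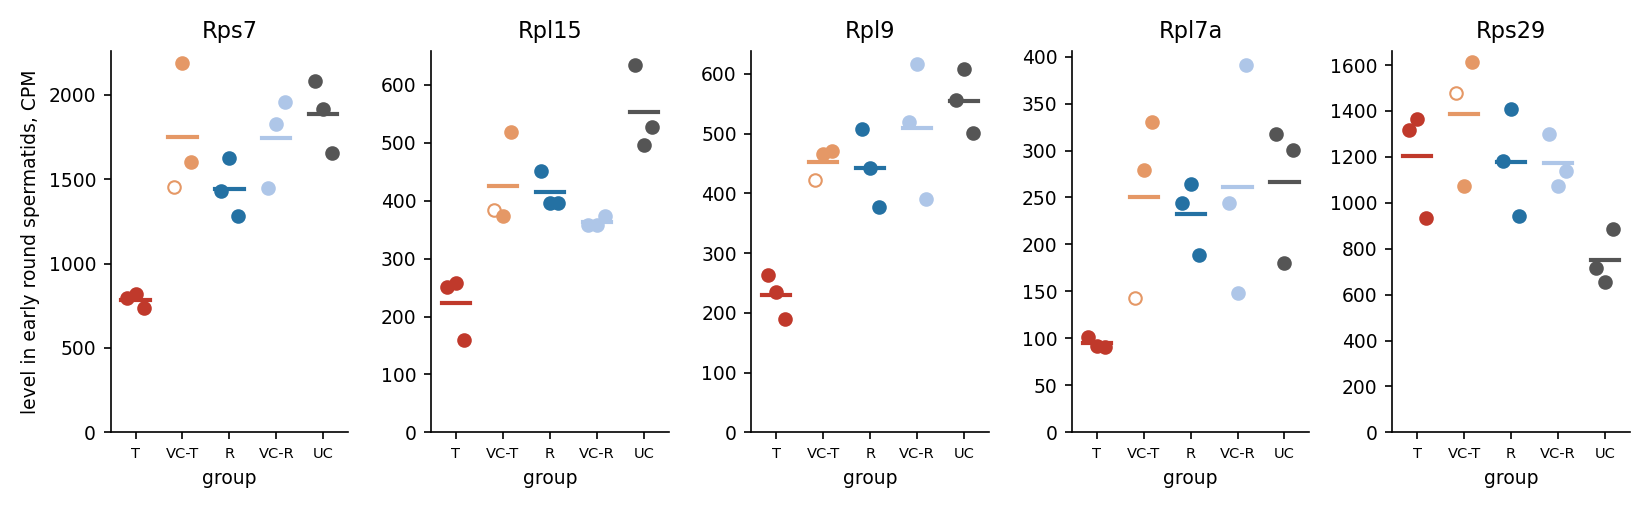
Level in CPM of 5 ribosomal protein genes in early round spermatids of each library, by group; points are libraries, the open circle is VC-T 1 and bars are group means. T lies below every other library for Rps7 (736 to 820 CPM), Rpl15, Rpl9 and Rpl7a, and UC lies lowest for Rps29.

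Rps7 was also lower in T in the other gates. In the spermatocyte gate the log2 fold change was -0.86 ± 0.0775 and in the later round gate -1.14 ± 0.0760. The difference between early round spermatids and spermatocytes in this change was -0.41 (95% interval -0.76 to -0.06, adjusted p = 0.671 by edgeR over 11651 genes). For Rpl15 it was -1.03 ± 0.242 (-1.51 to -0.56, adjusted p = 0.0344): spermatocytes were at 727 ± 70.9 CPM in T and 814 ± 28.9 in UC, early round spermatids at 223 ± 55.0 and 553 ± 73.1. The Rpl15 difference missed the threshold without any 1 of T 2, T 3 and the 3 UC libraries, with adjusted p-values up to 0.789.

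The other 6 named lower genes had their highest UC level in the protamine gate, as given below. 1700027A15Rik, an RNA of the + strand at chr1:72984844-73025507 annotated as antisense, was at 28.3, 5.73 and 0 CPM in T (7, 1 and 0 UMIs). UC had 417, 90.2 and 184 CPM (21, 4 and 22 UMIs), and VC-T had 7.54, 93.2 and 153 CPM. T did not overlap UC, but VC-T 1 lay inside T. The log2 fold change was -3.88 ± 0.536 (adjusted p = 3.75e-06 by edgeR). This GENCODE span starts upstream of the RefSeq start used for the sequence above, so the 136 bases lie inside it, and it holds Tnp1 (chr1:73015074-73015909, - strand), a rule gene with 1467 UMIs in these cells against 152 of 1700027A15Rik. Whether counting used the strand is not stated in the sources used here, so reads of Tnp1 cannot be told apart from its own with certainty.

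Spata3, a testis gene without a settled function, was at 60.7, 22.9 and 22.8 CPM in T. It was at 397, 67.6 and 226 in UC and at 0, 373 and 94.3 in VC-T. The lowest UC library stood just above the highest T library, and VC-T 1 had no UMI. The change was -2.56 ± 0.449 (adjusted p = 0.000345). Ccdc91, a coiled-coil protein of the trans-Golgi, was at 85.0, 45.9 and 22.8 CPM in T and 417, 203 and 167 in UC, at -2.10 ± 0.404 (adjusted p = 0.000885), with VC-T at 106, 186 and 141.

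The other named genes were rarer. 1700012A03Rik was at 16.2, 0 and 0 CPM in T and 139, 22.5 and 92.0 in UC, at -3.45 ± 0.724 (adjusted p = 0.00155). 1700001C19Rik was at 48.6, 34.4 and 30.4 CPM and 198, 113 and 134, at -1.88 ± 0.453 (adjusted p = 0.0125), and Lelp1, a small proline- and cysteine-rich protein, at 28.3, 11.5 and 15.2 CPM and 258, 45.1 and 109, at -2.71 ± 0.619 (adjusted p = 0.0131). T and UC did not overlap for any of them, and VC-T 1 was at 0, 37.7 and 7.54 CPM, inside or below T. Without 1 library Spata3 (adjusted p up to 0.0597 by edgeR), Ccdc91 (0.109), 1700012A03Rik (0.113), 1700001C19Rik (0.217) and Lelp1 (0.226) lost their calls. For Spata3 this was without UC 3, for Ccdc91 without UC 1, for 1700012A03Rik without UC 1 or UC 3, and for 1700001C19Rik and Lelp1 without T 3, UC 1 or UC 3, while 1700027A15Rik kept its call without any 1 library of T or UC. Lelp1 lies within 4930511M18Rik on the same strand, so its reads are uncertain. Outside the 10 named by rank, Tppp2, 4930544D05Rik and Psmf1 were called lower as well, on 4, 5 and 64 UMIs in T.

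Their levels were lower in T and VC-T 1, which had almost no late cells, than in every UC library. Within UC they did not follow the share of late cells. UC 1, with 58.2% late cells, had the highest level of every one of these genes. UC 2, with 66.2%, had the lowest for all but Ccdc91. In UC the protamine gate held 2534 CPM of 1700027A15Rik, 2167 of Spata3, 1409 of Ccdc91, 1317 of 1700012A03Rik, 1956 of 1700001C19Rik and 1412 of Lelp1. Cells with spermatogonia markers held 240, 248, 230, 136, 186 and 174 CPM. These cells cannot be taken as a clean earlier stage, since they held meiotic transcripts. In UC their mean of Sycp1 was 510 CPM, near the 611 of the spermatocyte gate, while Sycp3 was lower, at 108 against 340. Early round spermatids of UC held 230, 230, 262, 84.5, 148 and 137 CPM, at or below the level of the spermatogonia-marker cells for all of them but Ccdc91. Droplet data carry RNA that is free in the suspension, from which expression of these genes in early round spermatids cannot be told apart here. Its part in the calls was not tested. In T, where late cells were 0 to 0.121%, spermatogonia-marker cells held 28.2, 73.2, 140, 11.0, 65.8 and 64.8 CPM, so both kinds of cell were lower together.

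The same 6 genes were lower in T in the spermatocyte gate, by -4.20 to -1.35 on the log2 scale, and in the later gate, by -3.51 to -0.83. With an estimate of the free RNA subtracted from each library, Spata3 was at -0.88 (adjusted p = 0.928), Ccdc91 at -1.77 (0.706) and Lelp1 at -1.11 (0.912) by edgeR, and 1700012A03Rik turned to 2.38 (0.896), while 1700027A15Rik and 1700001C19Rik were not among the genes tested. In the other settings of T against UC in which they were tested, 1700027A15Rik stayed at -3.33 or lower and Ccdc91 at -1.57 or lower. In the libraries with almost no late cells that estimate had no footing, and the median of the other libraries, 19.1%, was used. Rps7 under the same subtraction was at -1.40 (adjusted p = 6.5e-07) and Rpl15 at -2.07 (adjusted p = 0.000117).

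**Figure D5:**
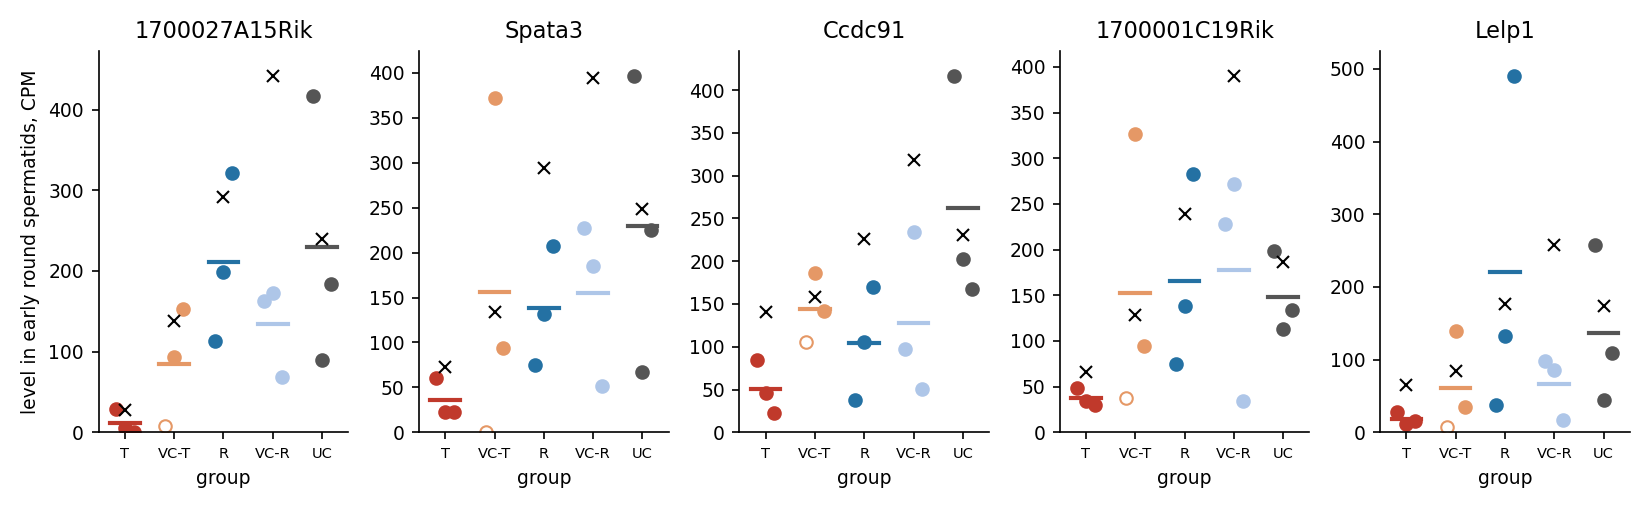
Level in CPM of 5 of the 6 named lower genes outside the ribosomal family in early round spermatids of each library, by group; points are libraries, the open circle is VC-T 1, bars are group means and crosses are the group mean in spermatogonia-marker cells of the same libraries. In UC the crosses (240, 248, 230, 186 and 174 CPM) lie near the early round spermatid means, and T and VC-T 1 are low in both.

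The 6 genes called higher in T were of mixed kinds. Ppp2r5c, a regulatory subunit of protein phosphatase PP2A, was at 352, 287 and 220 CPM in T and 39.7, 113 and 125 in UC, at 1.50 ± 0.330 (adjusted p = 0.00244). Ccdc88a (girdin), which links actin to signalling, was at 389, 384 and 410 CPM against 59.5, 203 and 209, at 1.18 ± 0.274 (adjusted p = 0.00606). The groups did not overlap for either gene. In VC-T, Ppp2r5c was at 166, 140 and 236 CPM and Ccdc88a at 399, 93.2 and 295, so VC-T overlapped with T for both genes, and T against VC-T gave log2 fold changes of 0.29 and 0.39 (adjusted p = 0.915 and 0.834).

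Tomm22, the central receptor of the mitochondrial import pore, was at 437, 533 and 554 CPM in T and 318, 248 and 209 in UC, at 1.00 ± 0.242 (adjusted p = 0.0104). Rb1cc1, a scaffold of autophagy start, was at 308, 327 and 334 CPM and 139, 158 and 142, at 1.12 ± 0.301 (adjusted p = 0.0346). Sox6, a transcription factor, was at 134, 149 and 220 CPM and 0, 90.2 and 33.4, at 2.05 ± 0.535 (adjusted p = 0.0417). Golga4, a golgin of the trans-Golgi, was at 150, 246 and 266 CPM and 139, 45.1 and 66.9, at 1.38 ± 0.381 (adjusted p = 0.0463). T lay above UC in all 4, by a narrow margin for Golga4, and VC-T values reached into T for Tomm22 and Golga4. Each of the 6 lost its call without at least 1 library, Ppp2r5c and Ccdc88a without UC 1 (adjusted p = 0.109 and 0.217), and Tomm22, Rb1cc1, Sox6 and Golga4 without UC 3 (0.306, 0.253, 0.460 and 0.412) and without others. With thinning before the rule, where UC was UC 3 alone, Ppp2r5c was at -0.44.

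Named gene groups were then described by their counts and medians. Of 30 acrosome genes tested, 1 passed the adjusted p without the fold limit, beside 0.85% of all genes. It was Tmem225, a membrane protein of the acrosome region, at 231, 241 and 258 CPM in T against 516, 564 and 368 in UC (-0.94 ± 0.240, adjusted p = 0.0203 by edgeR). Its means were 344 CPM in VC-T, 255 in R and 308 in VC-R, with VC-T from 249 to 512, R from 189 to 338 and VC-R from 211 to 391, so T overlapped R and VC-R and lay in part above the lowest VC-T library. After thinning before the rule, where UC was UC 3 alone, the value was 0.45. The median of the 30 was -0.07, and Acrv1 (0.12) and Spaca1 (0.12) had values near 0. Of 15 spermatid transcription regulators none passed, with a median of -0.25, and Crem was at -0.07 (502 ± 15.5 CPM in T). Of 4 BET and P-TEFb genes none passed, with a median of 0.20: Brdt was at -0.21 (132 ± 50.8 CPM in T), Brd2 at -0.06, Larp7, of the 7SK complex, at 0.46 and Brd3 at 0.50.

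The 33 genes of axoneme and intraflagellar transport had -0.03, the 20 of the chromatoid body, piRNAs and translation control 0.02, the 19 of manchette and head shaping 0.14, the 20 of sperm energy metabolism -0.17, the 11 of histone variants and eviction 0.08, and the 8 of endoplasmic reticulum and heat stress -0.04, with no member under an adjusted p of 0.05. The 6 sex chromosome multicopy genes tested had a median of -0.34 and 3 single-copy ones 0.37, again with no member under it. Among these, Ift172, of intraflagellar transport, was at -1.40 (adjusted p = 0.12), Eif4e, the cap-binding factor, at -1.16 (0.11) and Gapdhs, the sperm glycolytic enzyme, at -0.64 (0.13). For Ldhc the value was -0.28 (adjusted p = 0.230 by edgeR), at 5520 to 5796 CPM in T, 6625 to 7454 in VC-T and 6609 to 6822 in UC. The summed level of the energy list was 14392 to 15397 CPM in T, 16492 to 18191 in VC-T, 16394 to 17244 in UC, 14569 to 16866 in R and 15474 to 16872 in VC-R. T lay below every VC-T, VC-R and UC library in this sum, on which no test was run.

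Of 30 late spermatid genes tested, 26 were negative, the median was -0.44 and 2 were called lower, Spata3 and Ccdc91, against 0.621% called over all genes. Its summed level was 10902 to 11244 CPM in T, 10673 to 11464 in VC-T and 13268 to 16434 in UC, so T and VC-T overlapped and UC lay above both. Tssk6, a serine kinase of late spermatids, was at -4.25 (adjusted p = 0.287). Of the genes that the study lists as bound by BRDT and changed in spermatids, 43 entered the list used here, 15 were tested and 1, Spata3, was called lower, with a median of -0.56. That list was chosen by the study on these samples and is not independent evidence of its direction. Of 19 spermatocyte genes, none passed, and the median was 0.15.

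Markers of other cells were low in the comparison. Leydig, myoid, macrophage and endothelial markers were at 0 in every library of T, VC-T and UC, and of 13 spermatogonia markers none was tested, with summed levels of 30 to 69 CPM in T and 25 to 139 in UC. The 11 Sertoli markers summed to 8 to 75 CPM in T and 17 to 179 in UC, and the 3 that were tested (Cst12, Defb19 and Aard) had log2 fold changes between -1.37 and -1.22, with adjusted p-values of 0.787 or more. Of 12 genes that respond to BET inhibitors in other cells only Brd2 was expressed enough to be tested. Their part in the results was not tested.

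Against VC-T 3 alone, T had 7 called genes (0.229%), 1 higher and 6 lower. Rps7 (-1.05 ± 0.208, adjusted p = 0.00166), Rpl7a (-1.80 ± 0.409, 0.0108), Rpl15 (-1.20 ± 0.313, 0.0471) and 1700027A15Rik (-3.34 ± 0.770, 0.0299) were lower here as well, and the VC-T 3 values are those given above. Mt2, a metallothionein, was at 599, 636 and 425 CPM in T against 1190 in VC-T 3 (-1.11 ± 0.223, adjusted p = 0.00166), but at 437, 406 and 518 in UC, so VC-T 3 was the library that stood apart. 1700003H04Rik was at 368, 396 and 387 CPM against 766 (-1.03 ± 0.265, 0.0471). Dnajc7, a co-chaperone, had no UMI in VC-T 3 and 97.1, 143 and 75.9 CPM in T. A floor of 3 UMIs in VC-T 3 is 35.3 CPM, so T was at least 2.98-fold higher, while the other 2 VC-T libraries had 60.3 and 326 CPM. Nkiras2 overlaps Dnajc7 on the other strand. With 1 library the spread of VC-T was assumed to be that of the other groups, and DESeq2 called 1 gene. With VC-T 1 in the group edgeR called 0 of 2640 genes, with 134 at an unadjusted p under 0.05.

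In R, 2 genes were called against UC (0.0654%) and the same 2 against VC-R (0.0654%), both higher. Gm15517 was at 396 and 755 CPM in R 2 and R 3, and at 263 in R 1, against 278, 158 and 159 in UC and 211, 210 and 187 in VC-R. The log2 fold changes were 1.56 ± 0.311 (adjusted p = 0.00376) and 1.45 ± 0.308 (0.0139). Rev3l, the catalytic subunit of DNA polymerase zeta, was at 139 and 415 CPM in R 2 and R 3 and 132 in R 1, against 19.8, 22.5 and 50.2 in UC and 97.5, 12.3 and 34.0 in VC-R, at 2.75 ± 0.564 (0.00413) and 2.46 ± 0.549 (0.0218). R 3 was the highest library for both. Without R 3 neither gene was called in either comparison, and without R 2, which leaves R 3 alone, 150 and 129 genes were called. No member of any list was called. Rps7 was at -0.24 against UC (adjusted p = 0.704) and -0.14 against VC-R (0.950), and R 1 and R 3 lay below every VC-R and UC library.

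The change with JQ1 at treatment was also set against that at recovery, as T minus VC-T less R minus VC-R. No gene was called (0% of 3060, lowest adjusted p = 0.0549 by edgeR), with 174 at an unadjusted p under 0.05 and 0 called by DESeq2. For Rps7 the difference was -0.91 ± 0.270 (adjusted p = 0.170), so its call in T and not in R does not show that the changes differ. Without R 2, 27 genes were called.

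Set against other stages of the same libraries, the change from UC to T differed from that in spermatocytes for 8 of 11651 genes (0.0687%), 7 upward and 1 downward, the latter Rpl15. The 3 with the lowest adjusted p fell in spermatocytes (adjusted p = 0.0054 for Dynll2, 0.0124 for Tulp2 and 0.00114 for Nupr1l) and did not pass the test in early round spermatids. They were lower in T in the later round gate as well. The log2 fold changes there were -0.58, -0.37 and -0.40 in the same order (adjusted p = 1.51e-08, 0.000103 and 7.78e-05 by edgeR). Dynll2, a dynein light chain, was at 604 ± 90.1 CPM in T and 607 ± 127 in UC in early round spermatids, and at 352 ± 112 and 701 ± 86.0 in spermatocytes, a difference of 1.10 ± 0.217 (adjusted p = 0.00433). Tulp2, a tubby-like protein of the testis, was at 668 ± 88.7 and 566 ± 123, and at 352 ± 92.3 and 598 ± 110 (1.06 ± 0.218, 0.00433). Nupr1l was at 455 ± 19.6 and 386 ± 44.7, and at 244 ± 51.3 and 444 ± 23.0 (1.19 ± 0.244, 0.00433). All 3 lost the call without T 2, T 3, UC 2 or UC 3, each alone, and DESeq2 called 0 genes. Against the later round gate 0 of 5859 genes were called (0%), with 388 at an unadjusted p under 0.05 and 0 called by DESeq2.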

How the data were processed

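Testes of 15 DBA/2J mice were profiled by droplet single-cell RNA sequencing (Chromium Single Cell 3′ v3), 1 library per mouse, and all libraries were pooled on 1 sequencing lane. The authors deposited UMI counts without normalization for 32285 genes in each cell barcode, from reads aligned to mm10. The submitters' notes and the study name Cell Ranger 3.0.0 while the file headers name 7.0.0. Use of introns and strand is not given in the sources used here, and the study's removal of free RNA and doublets is not in the deposited counts.

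Cells were chosen by the rule given above. UMIs were summed over the cells of a library, CPM used the same sum, and edgeR 4.0.16 (R 4.3.3; TMM, filterByExpr, robust quasi-likelihood, Benjamini-Hochberg over all tested genes outside the rule) was fitted on libraries with at least 10 cells, with all groups in 1 fit. Genes were called at an adjusted p below 0.05 with a log2 fold change beyond 1 in either direction. Library values were compared by two-sided exact permutation tests (SciPy 1.17.1), adjusted over 10 tests. DESeq2 1.42.0, RLE, no filter, a replicate block, thinning to 2000 UMIs, stricter rules, doublet removal (scanpy 1.11.5), subtraction of free RNA and each left-out library were alternatives. Scripts were tested on simulated data. For T against UC, 44.6% of genes changed 2-fold and 88.4% of those changed 4-fold were recovered at an adjusted p under 0.05 by edgeR. There were 5 false calls, with 2916 genes tested. A gene without a call is therefore not shown to be unchanged. Named genes were the 6 higher and 10 lower called genes of T against UC with the lowest adjusted p and all called genes of the other comparisons. The members, gene lists and motifs were chosen with earlier results of these data known. Positions are from GENCODE vM21 (GRCm38) for 32235 genes. Intervals of the share cover counting error only, while those of log2 fold changes come from the SE of the edgeR fit. Members of 1 library are not replicates.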

Additional observations from a re-analysis of the deposited data

Results flagged for a closer look

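UC 3 had 4.67 early round spermatids per 100 spermatocyte-gate cells, far above the other 5 libraries of UC and VC-R. Chance sets a library apart in this way in about 1 of 20 groups. Every library measure tested above was screened at both ends in both sets of controls, and no other library was set apart. Among UC and VC-T the same value of UC 3 was not set apart.

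For 8 genes the change from UC to T differed between early round spermatids and the spermatocyte gate by a test of the difference itself (edgeR, adjusted over 11651 genes, log2 scale). The difference was 1.10 for Dynll2, 1.06 for Tulp2 and 1.19 for Nupr1l, with the levels given in the report. It was 1.13 for Gtsf1l (adjusted p = 0.0344), which was at 332 CPM in T and 330 in UC in early round spermatids and at 182 and 367 in spermatocytes. Rnf4, a ubiquitin ligase, had 1.75 (adjusted p = 0.0419), at 149 and 70.3 CPM against 102 and 167. Cfap97d1 had 1.67 (0.0464), at 130 and 105 CPM against 73.6 and 163. Gm8251 had a fitted 10.90 (0.0464), which is no bound on the fold: it had 0 UMIs in UC early round spermatids and a mean of 20.4 CPM in T. Rpl15 went the other way, at -1.03.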

How the results depend on the processing

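The count of genes called in T against UC (19) was 15 with RLE size factors and 18 without the filter on low counts. It was 10 with DESeq2, 7 with VC-T 1 included, 2 after thinning, 8 with protamine and transition protein UMIs under 1%, 7 with doublets removed, 4 with free RNA subtracted, 9 with the libraries under 10 cells and 6 with all 15 libraries. Against VC-T (7) it was 1 with DESeq2, 1 without the filter, 25 with only those groups, 0 with VC-T 1, 4 after thinning, 13 under 1% and 1 with all 15. For R against UC (2) it was 12 with DESeq2, 17 without the filter, 1 with only those groups, 1 with VC-T 1, 0 after thinning, 0 under 1%, 1 without doublets, 0 with free RNA subtracted, 0 with the small libraries, 0 with all 15 and 16 against all controls but VC-T 1. For R against VC-R (2) it was 0 with RLE, 11 without the filter, 0 with only those groups, 0 with VC-T 1, 0 after thinning, 0 under 1%, 1 without doublets, 0 with the small libraries and 0 with all 15. For the difference between treatment and recovery (0) it was 1 without the filter, 1 with only those groups, 2 under 1% and 1 without doublets. For early round spermatids less spermatocytes (8) it was 5 with RLE, 0 with DESeq2, 3 without the filter and 66 with VC-T 2 and VC-T 3 in place of UC, which gave 16 against the later gate (0). The limit of 10 cells also changed the libraries in some of these settings. With doublets removed UC 1 had 9 cells and fell out, and the count of 7 for T against UC was also that without UC 1. Under 1%, UC 1 had 7 cells and R 3 had 1, so UC 1 fell out and R was R 2 alone. After thinning UC was UC 3 alone and VC-R was VC-R 1 alone. The causes were not tested.

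Ppp2r5c was at -0.44 and Tmem225 at 0.45 after thinning, with UC 3 as the only UC library. With free RNA subtracted 1700012A03Rik was at 2.38 (adjusted p = 0.896 by edgeR). The difference in share for T was 1.05 against UC alone and 0.935 against vehicle alone (both exact permutation p = 0.1, the smallest for 3 against 3). Per 100 spermatocytes it was -0.463 against UC alone and -0.0612 without VC-T 1, and in median UMIs 113 against vehicle alone. In genes per cell at 2000 UMIs it was 48.2 and 37.7 for T against UC or vehicle alone, and for R 30.2 and 27.1, 30.6 with at least 3 marker UMIs and 20.8 after thinning. With at least 3 marker UMIs, R had 1436 more median UMIs (exact permutation p = 0.0476) and an X-linked difference of -0.161, and no gene comparison could be computed since 3 libraries kept 10 cells.

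Without 1 library the counts ran from 7 to 34 for T against UC, 3 to 10 against VC-T, 0 to 150 for R against UC, 0 to 129 against VC-R, 0 to 27 for treatment less recovery and 0 to 21 for early round spermatids less spermatocytes. The share difference in T ran from 0.923 to 1.08, with 0.947 and 1.03 without a T library, that per 100 spermatocytes from -0.202 to 0.493, in genes per cell from 37.4 to 51.1 in T, with 46.4 without T 2, and from 21.1 to 38.5 in R, in median UMIs in R from -520 to 1661, and in X-linked share from 0.131 to 0.176 in T and from -0.0912 to 0.167 in R. Leaving out VC-T 3 gave no value for the genes in T against VC-T.

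Replicate numbers did not pair the mice: over 15 same-number pairs the correlation of deviations was -0.150 to 0.111, and 2 exceeded 0.1. With the replicate number as a block, the counts were 21 for T against UC, 6 against VC-T, 22 for R against UC, 8 against VC-R and 5 for treatment less recovery.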
